A study of Mus musculus with 3 samples.

Results

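Transcripts of 7 genes of pericellular proteolysis and hepatocyte growth factor signaling, Plau, Plaur, Plat, Serpine2, Serpinb2, Hgf and Met, were followed in wounded mouse fibroblasts. They were taken by gene name and are 7 of the 43472 rows of the deposited expression table. The cells were primary fibroblasts cultured from the tail tips of C57BL/6 mice, scratched in vitro, given soluble micrografts (MG, the soluble fraction of mechanically disrupted mouse skin, filtered and centrifuged to remove cells and debris) diluted 1:10 in growth medium together with PD0325901, a MEK inhibitor that blocks activation of ERK, and collected after 5 h. All 3 libraries belonged to this 1 group, MG + PD0325901 replicates 1 to 3. Untreated cells and cells given MG alone were not analysed here, so no effect of MG or of the inhibitor was measured, and the replicates are compared with each other. Whether the replicates came from separate mice or cultures was not stated, so each spread and p-value covers only the difference between these samples, which may be technical.

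Plasmin, a broad protease that cuts fibrin and other matrix proteins, is made from circulating plasminogen by urokinase (Plau) or by tissue-type plasminogen activator (Plat). Urokinase acts at the cell surface while bound to its receptor (Plaur), and serpins such as protease nexin-1 (Serpine2) and PAI-2 (Serpinb2) block the activators. Hepatocyte growth factor (Hgf) is secreted by mesenchymal cells as an inactive precursor that serine proteases cut, and the mature ligand activates the receptor tyrosine kinase Met, which drives motility in wounded tissue.

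The libraries held 22540518, 27037783 and 17244505 reads assigned to genes, and the 7 genes together took 0.336%, 0.144% and 0.358% of them in replicates 1, 2 and 3. Levels are given as normalized counts, the reads of a gene divided by 1 size factor per library. At least 10 normalized counts in every library were found for 12204 genes (detected genes), among them all 7. The 8 fibroblast markers were all detected, with a summed level of 321217, 357710 and 476290 normalized counts, whereas none of the 4 keratinocyte and none of the 4 endothelial markers was, with sums of at most 2.37 and 13.9. Replicate 2 stood apart, since the spread between libraries beyond counting error (the biological coefficient of variation, BCV) was 36.0% over all 3 and 24.0% without replicate 2. Mean normalized counts, SDs, counts of wide ranges and mean ratios that moved by more than 1.5 times without replicate 2 are therefore also given without it.

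Plau was the most abundant of the 7. It lies on chr14:20836660-20843385 (GRCm38, plus strand) and stood at 28792, 10676 and 44245 normalized counts in replicates 1, 2 and 3, with a mean of 27904 ± 16802 (SD, n = 3). Replicate 2 was 2.70-fold below the lower of the other libraries, and replicates 2 and 3, its extremes, lay 4.14-fold apart. The lowest value still rested on 15151 reads, a counting error of 0.812%. In bulk samples, fewer cells that express a gene and less of its RNA per cell cannot be told apart.

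Plat, the other activator (chr8:22757727-22782844, plus strand), ran the opposite way. Its levels were 2640, 4872 and 1536 normalized counts, with a mean of 3016 ± 1699 (SD, n = 3). Replicate 2, the lowest library for Plau, was the highest for Plat, 1.85-fold above the next. Replicate 3, the highest for Plau, was the lowest for Plat.

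Plaur, which anchors urokinase at the membrane (chr7:24462484-24475968, plus strand), followed the order of Plau with a smaller range. It measured 12284, 5953 and 14483 normalized counts, with a mean of 10907 ± 4429 (SD, n = 3). Replicate 2 lay 2.06-fold below the lower of the other libraries.

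**Figure D1:**
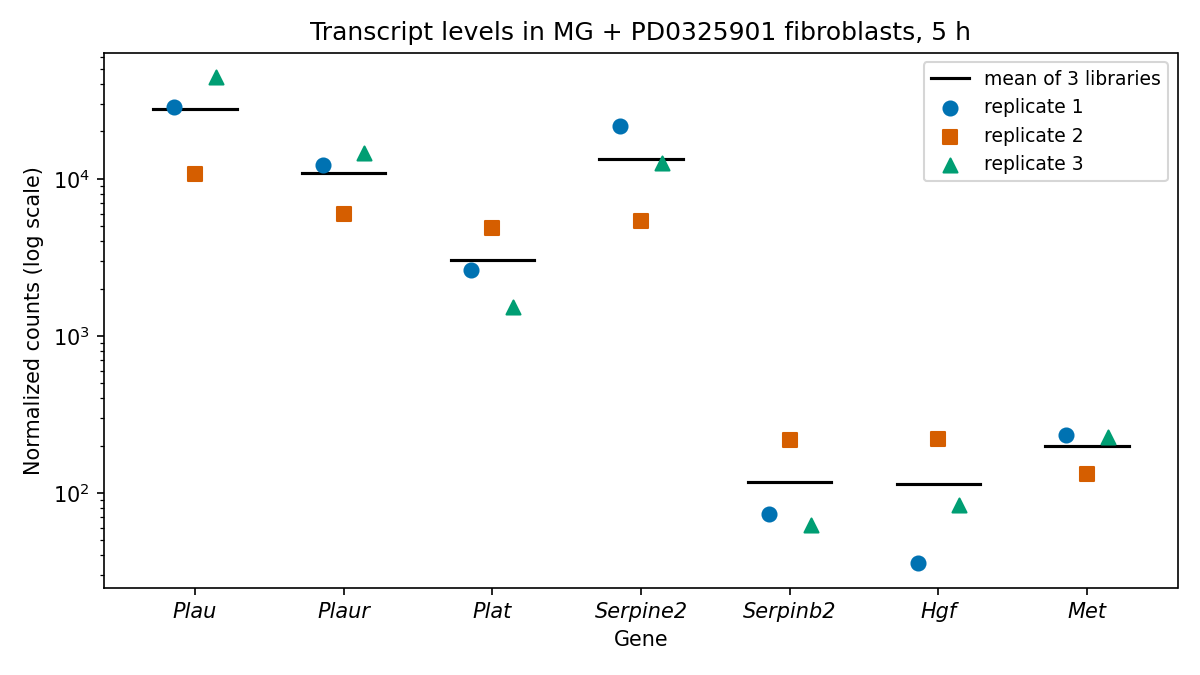
Normalized counts (log scale) of the 7 genes in the 3 MG + PD0325901 libraries at 5 h; each point is 1 library and each bar the mean of the 3. Plau, Plaur, Serpine2 and Met were lowest in replicate 2, while Plat, Serpinb2 and Hgf were highest there.

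The serpins differed in level by far more than the libraries did. Serpine2, an inhibitor of urokinase, tissue-type activator and thrombin (chr1:79794197-79861180, minus strand), had 21802, 5418 and 12589 normalized counts, with a mean of 13270 ± 8213 (SD, n = 3). Replicate 1 was the highest library and replicate 2 lay 2.32-fold below the lower of the other libraries. Serpinb2, which is largely retained inside cells (chr1:107511423-107535478, plus strand), had 72.9, 216 and 62.8 normalized counts, with a mean of 117 ± 85.8 (SD, n = 3). Replicates 1 and 3 were close to each other, and replicate 2 was 2.97-fold above the higher of them. These values rested on 84, 307 and 53 reads, so the counting error of the lowest was 13.7%. Without replicate 2 the mean was 67.9 normalized counts. Serpinb2 shares 291 exon bases with its neighbour Serpinb10, which had no read in any library.

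Hgf, the ligand (chr5:16553495-16620152, plus strand), was the gene with the widest range. Its levels were 35.6, 221 and 84.2 normalized counts, with a mean of 114 ± 96.3 (SD, n = 3). The highest library, replicate 2, was 6.21-fold above the lowest, replicate 1, which rested on 41 reads with a counting error of 15.6%. Without replicate 2 the mean was 59.9 normalized counts. Hgf shares 484 exon bases with the annotated gene Gm43489, which has no row in the table. Met, the receptor (chr6:17463800-17573980, plus strand), was the steadiest, at 234, 131 and 228 normalized counts with a mean of 197 ± 57.5 (SD, n = 3). Replicates 1 and 3 nearly coincided, and replicate 2 lay 1.74-fold below them.

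Among the promoters, those of Plaur, Met and Hgf are shown because they hold a match to 1 of 4 sequences searched on both strands, those bound by AP-1 (TGACTCA), CREB (TGACGTCA), ETS factors (GGAAGT) and NF-kB (its kappa-B consensus). ETS and AP-1 factors are known nuclear targets of the ERK pathway that PD0325901 blocks. RefSeq windows from 250 bases before to 50 after a transcription start (GRCm38.p6) matched 5 of the 7 genes, all but Plau and Plat. The stretches run 5′ to 3′ on the plus strand, which is the gene's own strand, with the match in capitals. TGAGTCA and ACTTCC are the AP-1 and ETS sequences read from the other strand.
Plaur, chr7:24462384-24462450: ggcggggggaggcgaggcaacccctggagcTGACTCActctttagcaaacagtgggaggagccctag
Met, chr6:17463873-17463939: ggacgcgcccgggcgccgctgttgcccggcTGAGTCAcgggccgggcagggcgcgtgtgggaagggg
Hgf, chr5:16553265-16553330: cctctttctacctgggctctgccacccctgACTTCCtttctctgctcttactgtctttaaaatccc

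The AP-1 match began 69 bases before the RefSeq start of Plaur and 54 bases before that of Met. The ETS match began 200 bases before the first RefSeq start of Hgf. For Met, this RefSeq start and the match both lie inside the annotated gene span given above. Of 32851 windows of this length, 5.20% held the AP-1 sequence, 23.8% the ETS sequence, 1.79% the CREB sequence and 1.63% the NF-kB sequence. None of the 4 sequences was in the windows of Serpine2 and Serpinb2 or in the second window of Hgf, which says only that these letters are absent there. The genes with an AP-1 match, Plaur and Met, were both lowest in replicate 2, as was Serpine2, which had none in its window. That window (chr1:79858616-79858915) lies inside the annotated span of Serpine2, so the sequence at the 5′ end of that span was not searched. Plau, also lowest in replicate 2, had no window to search. GC content was 77.7% for Serpine2, 75.7% for Met, 59.3% for Plaur, 51.3% for both windows of Hgf and 35.3% and 39.3% for those of Serpinb2, against a median of 52.7% over all windows.

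The differences between replicates were then set against counting error. Reads of each pair of libraries were compared gene by gene with a two-sided exact binomial test and Benjamini-Hochberg adjustment over all genes tested, which compares these libraries and covers counting error only. Between replicates 1 and 2, all 7 genes passed the adjusted threshold of 0.05, where 68.4% of 14771 tested genes did. Plat, Serpinb2 and Hgf were higher in replicate 2 and the other 4 were lower. Between replicates 2 and 3, all 7 passed again, where 62.0% of 14344 did, and each gene was on the same side of replicate 2 as before. Between replicates 1 and 3, 5 of the 7 passed, where 51.1% of 14316 did. Plau, Plaur and Hgf were higher in replicate 3, and Plat and Serpine2 were lower. Serpinb2 (exact binomial test, adjusted p = 0.555) and Met (adjusted p = 0.887 in the same exact test) did not differ detectably between replicates 1 and 3 at this depth, whereas Hgf was 2.35-fold higher in replicate 3 (adjusted p = 4.04e-05, exact binomial test).

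Most genes pass such a test at this depth, so the size of the range was counted as well. The extreme libraries lay more than 2-fold apart for 6 of the 7 genes, all but Met, beside 22.0% of the detected genes. Replicate 2 was more than 2-fold below both other libraries for Plau, Plaur and Serpine2, beside 3.54% of detected genes, and more than 2-fold above both for Serpinb2 and Hgf, beside 4.30%. Replicate 2 was the highest or the lowest library for all 7 genes, and so it was for 77.9% of the detected genes. Without replicate 2, only Hgf of the 7 kept a range above 2-fold, and the share of detected genes fell to 6.31%, where a range over fewer libraries is smaller by construction.

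On the scale of log2(normalized count + 1), the SD over the 3 libraries was 1.30 for Hgf, 1.05 for Plau, 1.01 for Serpine2, 0.97 for Serpinb2, 0.83 for Plat, 0.68 for Plaur and 0.47 for Met. The median SD was 0.97 over the 7 genes and 0.30 over all detected genes. Hgf lay at percentile 98.0 and Met at percentile 73.6 of the detected genes by this SD. Without replicate 2 the SD was 0.86 for Hgf, 0.44 for Plau, 0.56 for Serpine2, 0.15 for Serpinb2, 0.55 for Plat, 0.17 for Plaur and 0.03 for Met, beside a median of 0.20 over detected genes.

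**Figure D2:**
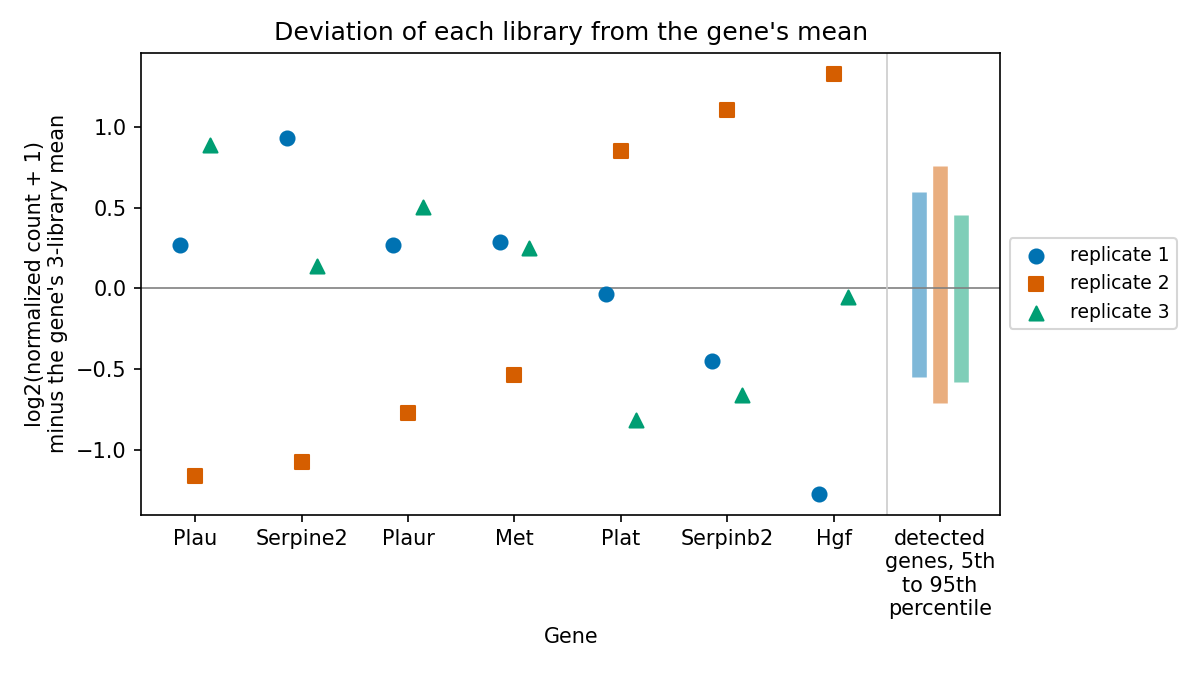
Deviation of each library from the gene's 3-library mean, in log2(normalized count + 1), with bars for the 5th to 95th percentile of all detected genes in each replicate. Replicate 2 deviated by -1.16 for Plau and by 1.33 for Hgf, outside its bar from -0.71 to 0.76.

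Markers of other cell types also differed between the libraries. The summed level of 7 leukocyte and macrophage markers was 185, 256 and 849 normalized counts, highest in replicate 3, where Plau and Plaur were highest too. Most of this was Lyz2 (123, 62.7 and 601) and Csf1r (57.3, 179 and 161), the only detected ones of the 7, while the pan-leukocyte marker Ptprc was at 1.74 at most. The other leukocyte markers were low but also highest in replicate 3, with Laptm5 at 1.74, 4.93 and 36.7, Adgre1 at 0, 6.34 and 23.7, Tyrobp at 0, 2.11 and 15.4 and Cd52 at 0.868, 0.705 and 9.48 normalized counts. All 5 of the leukocyte markers with enough reads for the exact binomial test were higher in replicate 3 than in replicate 1, where 51.1% of all tested genes differed in either direction. The summed level of 4 Schwann cell markers was 148, 59.9 and 151, lowest in replicate 2 like Plau, Plaur, Serpine2 and Met, with Sox10 at 2.37 at most. Des, the only detected skeletal muscle marker of 4, stood at 212, 1208 and 77.0, highest in replicate 2 like Plat, Serpinb2 and Hgf. The other muscle markers did not follow it, with Myod1 at 0 throughout, Myh3 at 1.74, 0 and 3.56 and Ckm at 0, 0 and 1.19. The melanocyte markers were not detected (0 of 4, summed level at most 20.1). Among fibroblast markers, Thy1 stood at 2031, 15760 and 1652 normalized counts and Lum at 5073, 289 and 1164. The part of any of these in the differences of the 7 genes was not tested.

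To compare genes with each other, levels were divided by exon length and are given as normalized counts per kb. Plau led with 11789 ± 7099, followed by Plaur with 4168 ± 1692 and Serpine2 with 1601 ± 991 (SD, n = 3 each). Plat followed with 483 ± 272, then Met with 25.7 ± 7.49 and Hgf with 15.8 ± 13.4 per kb (SD, n = 3 each). Serpinb2 came between Plat and Met, at 31.1, 92.1 and 26.7 per kb. By this mean, Plau lay at percentile 99.6 and Hgf at percentile 12.3 of detected genes. Only Plat and Serpinb2 were neighbours in this order whose ranges did not overlap, with Plat 13.6-fold, 8.48-fold and 9.20-fold higher in replicates 1, 2 and 3. Plau exceeded Plaur, and Plaur exceeded Serpine2, in each of the 3 libraries, although their ranges overlapped. Serpine2 and Plat changed places in replicate 2, as did Met and Hgf, and the ratio of Serpinb2 to Met was 1.02 in replicate 1, 5.40 in replicate 2 and 0.902 in replicate 3. With the length of the longest transcript instead, Hgf (32.8 per kb) came before Met (29.0 per kb), so the order of these genes was not settled. Without replicate 2, Serpinb2 ranked below Met.

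**Figure D3:**
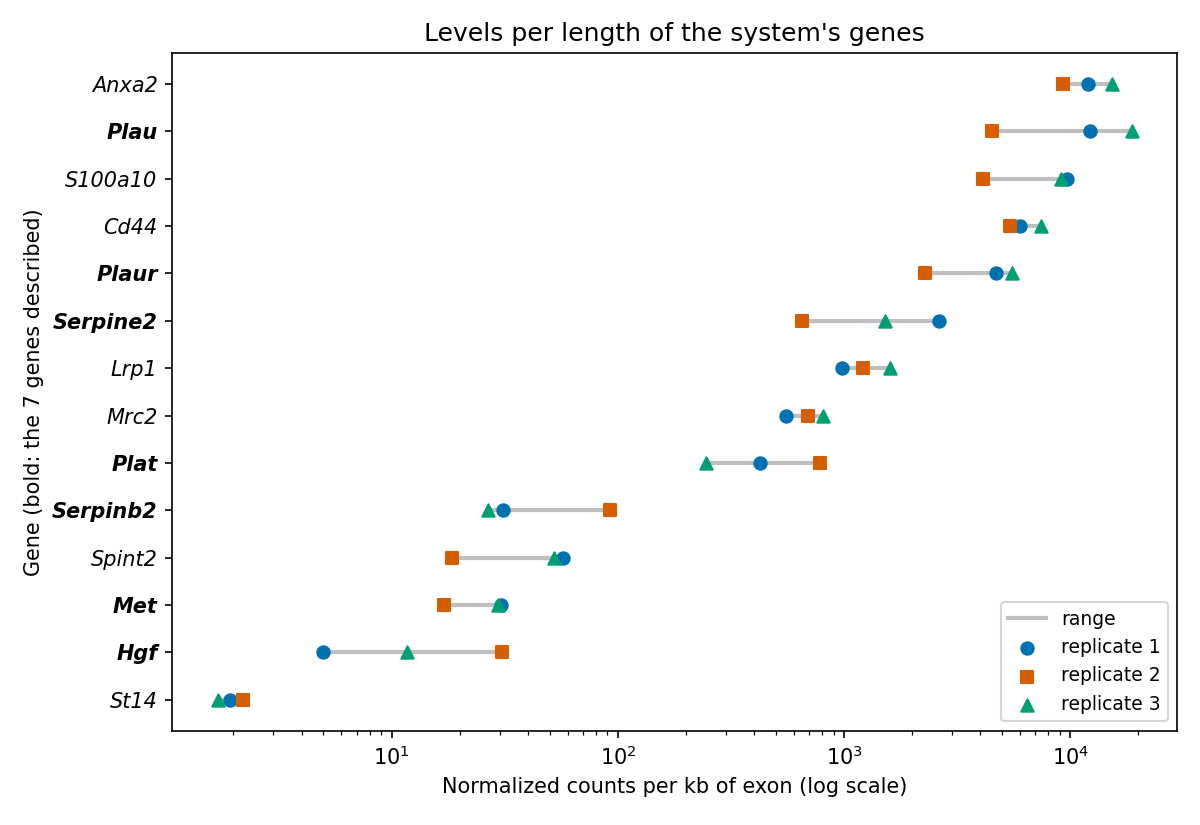
Normalized counts per kb of exon (log scale) in each library for the 7 genes (bold) and for some other detected genes of the plasminogen system and HGF-MET. Points are libraries and grey lines their range. Plau, Plaur, Serpine2 and Plat lay at 246 per kb or more in every library, and Serpinb2, Met and Hgf at 92.1 or less.

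Ratios taken within a library showed which balances moved with the replicate. Urokinase transcript made up 96.6%, 85.2% and 98.7% of the per-kb sum of both activators in replicates 1, 2 and 3. Plau exceeded Plat 28.7-fold, 5.78-fold and 75.9-fold, and the mean log2 ratio was 4.54 ± 1.88 (SD, n = 3, exact sign-flip permutation test, two-sided p = 0.25). Without replicate 2 this mean was 5.55, without replicate 3 it was 3.69, and with the longest transcript 3.93. Since Plau and Plat ran in opposite directions, this ratio varied 13.1-fold, more than either gene. Plau and its receptor Plaur moved together, and their log2 ratio was 1.37, 0.99 and 1.76 with a mean of 1.37 ± 0.38 (SD, n = 3, exact permutation p = 0.25). Serpine2 lay 4.62-fold, 6.90-fold and 12.3-fold below Plau, a mean log2 ratio of -2.87 ± 0.71 (SD, n = 3, exact permutation p = 0.25), which was -1.60 with the longest transcript. With 3 libraries 0.25 is the smallest p this test can give, so none of these ratios could reach 0.05.

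The ratio of ligand to receptor changed direction between libraries. Hgf lay 6.00-fold below Met in replicate 1 and 2.51-fold below it in replicate 3, but 1.80-fold above it in replicate 2. The mean log2 ratio was -1.02 ± 1.74 (SD, n = 3, exact permutation p = 0.50), and the ratio ranged 10.8-fold. This mean was -1.96 without replicate 2, -0.24 without replicate 1 and -0.14 with the longest transcript. The sum of both activators was 12587, 5291 and 18939 per kb, a 3.58-fold range, and that of Serpine2 and Serpinb2 was 2662, 746 and 1546 per kb, a 3.57-fold range.

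**Figure D4:**
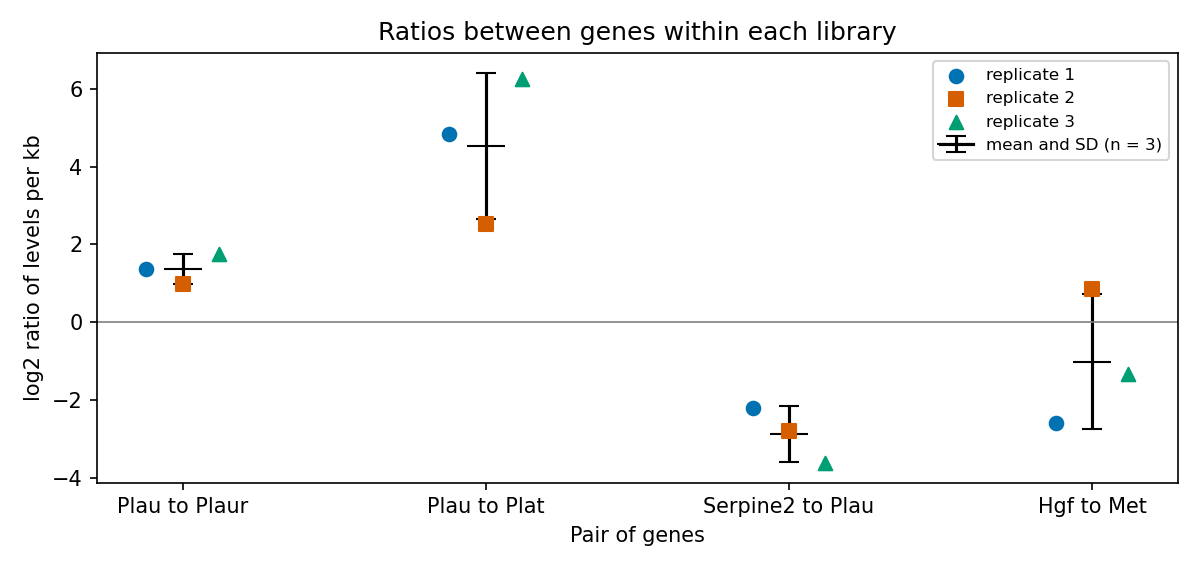
The log2 ratio of levels per kb within each library for 4 pairs of genes; points are libraries and bars the mean and SD (n = 3). Hgf to Met was below 0 in replicates 1 and 3 and at 0.85 in replicate 2, while the other pairs kept their sign.

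The rest of the plasminogen system was described from a list of 20 further genes. Reads were found for 16 of them, 10 were detected, and 1 of the 10 had a range above 2-fold, beside 22.0% of all detected genes. That gene was S100a10, the partner of annexin A2 in a surface receptor for plasminogen and tissue-type activator, at 11720, 4987 and 11059 normalized counts, and without replicate 2 none of the 10 had such a range. Annexin A2 itself (Anxa2) had 44698, 34603 and 57194. Both were lowest in replicate 2, like Plau and Plaur. The median SD of log2 level over these detected genes was 0.36.

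Lrp1, the endocytic receptor that clears activator and inhibitor complexes, had 17409, 21453 and 28209 normalized counts, and Vldlr, a relative with the same role, had 352, 672 and 601. Mrc2, a collagen receptor that associates with the urokinase receptor, had 3703, 4607 and 5370. Plasminogen itself (Plg) was near absent with 2, 0 and 7 reads, and Vtn, Serpina5, Cpb2 and F12 had no read in any library.

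In the exact binomial test, 10 of 13 tested genes of this list differed between replicates 1 and 2, beside 68.4% of all tested genes, 5 of them higher in replicate 2 and 5 lower. Between replicates 1 and 3, 10 of 13 differed, beside 51.1%, with 8 higher in replicate 3. Between replicates 2 and 3, 9 of 12 differed, beside 62.0%, all 9 of them higher in replicate 3. The shares of all tested genes cover either direction, so the counts by direction have no background.

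For HGF-MET signaling, reads were found for all 24 further genes listed and 21 were detected. A range above 2-fold was seen for 6 of the 21 (28.6%), namely Spint2, Mst1r, Crkl, Cbl, Plxnb1 and Nrp1, near the 22.0% of all detected genes, and the median SD of log2 level was 0.28. Without replicate 2 such a range was left for Cbl and Mst1r, 2 of the 21. Replicate 2 was the highest library for 15 of the 21 and the lowest for 4, beside 77.9% of all detected genes for which it was either. The share of all detected genes for which it was the highest was not counted, so this lean has no background. Cbl, the ubiquitin ligase that marks active Met for degradation, had 30.4, 290 and 134 normalized counts, a 9.55-fold range in the order of Hgf. Plxnb1, a semaphorin receptor that pairs with Met, had 82.5, 335 and 121, in the same order. Nrp1, a co-receptor that binds Hgf, had 2233, 4256 and 1795, in the order of Plat.

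Of the genes listed for control of the Hgf precursor, the proteases Hgfac and St14 had few reads. Hgfac, the activator protease of plasma, had 9, 1 and 0 reads, and the membrane protease St14 (matriptase) had 17, 24 and 11 reads. Spint2, an inhibitor of both, had 260, 83.8 and 238 normalized counts, lowest in replicate 2 like Met, while the related Spint1 had at most 4.34. Cd44, whose variant forms act as co-receptors of Met, was abundant at 40677, 36683 and 50478 normalized counts. Of the adaptors next to Met, Gab1 had 293, 405 and 243 and Grb2 had 1802, 1621 and 1683 normalized counts.

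In the exact binomial test, 20 of 24 tested genes of this list differed between replicates 1 and 2, beside 68.4% of all tested genes, with 14 higher in replicate 2. Between replicates 1 and 3, 13 of 22 differed, beside 51.1%, 8 of them higher in replicate 3. Between replicates 2 and 3, 19 of 21 differed, beside 62.0%, with 15 lower in replicate 3. Here too the shares of all tested genes cover either direction.

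**Figure D5:**
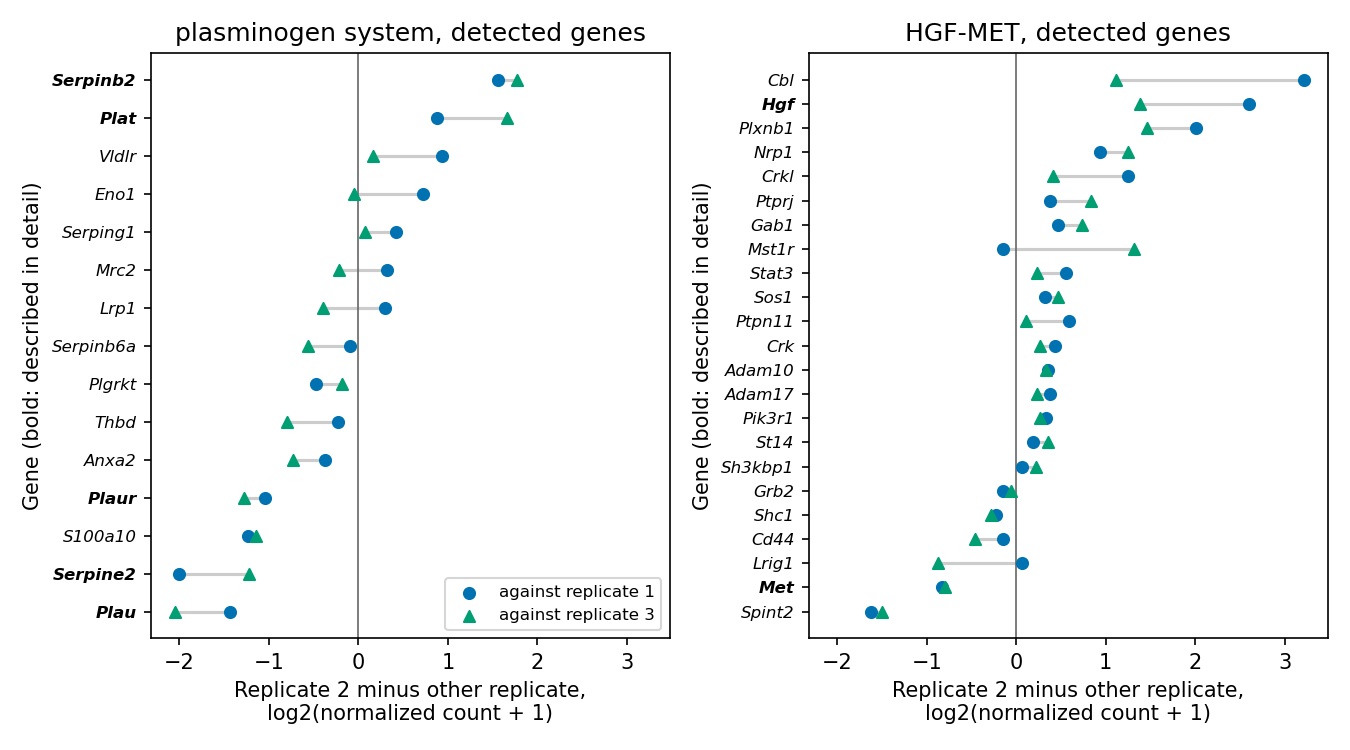
Difference between replicate 2 and each other replicate, in log2(normalized count + 1), for the detected genes of the plasminogen system (left) and of HGF-MET (right), with the 7 genes in bold and grey lines joining both differences of a gene. Genes are ordered by the mean of both differences, by which Plau and Serpine2 lay lowest on the left and Cbl and Hgf highest on the right.

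The genes closest to each of the 7 in pattern were found by the largest difference in any library between their log2 levels, each centred on its own 3-library mean, over the 12203 other detected genes. With 3 libraries many genes share a pattern, so this is a description of these libraries. Plau was closest to Lif, a cytokine of the interleukin-6 family (difference 0.05), followed by Rnf19b and Gm2193, and 10 genes lay within 0.1. Lif had 2931, 1069 and 4685 normalized counts. Plaur was closest to Fgfr3, Gja1 and Chst7, with 43 genes within 0.1. Gja1, a gap junction protein, had 13089, 6494 and 15808 normalized counts. Serpine2 was closest to Polr2l, Serf1 and Hist1h4h, with 10 genes within 0.1.

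Serpinb2 was closest to Bub1, a kinase of the mitotic checkpoint (difference 0.02), followed by Sec16b and Foxm1, a transcription factor of dividing cells, with 22 genes within 0.1. Bub1 had 135, 402 and 119 normalized counts. Plat was closest to Efcab11, Galm and Trim59, with 21 genes within 0.1. Hgf had only 3 genes within 0.1, Zcchc11, Soga1 and Arid5b, and Met had 185, led by Slc22a13b-ps, Slc39a1 and Tmem189. Among the 7 themselves, Plaur was closest to Met (0.26) and Plau (0.38), Plat to Serpinb2 (0.41), and Plau was farthest from Hgf (2.49).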

How the data were processed

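RNA-seq of 3 libraries of MG + PD0325901 fibroblasts at 5 h was analysed. The authors prepared stranded mRNA libraries (Illumina TruSeq), sequenced them on a HiSeq4000, and, per the labels, used FastQC 0.11.5, TopHat2 2.0.13, SAMtools 0.1.19.24, HTSeq 0.5.3p3, DESeq and the mm10 genome. Only uniquely mapped reads were kept, so reads that fit near-identical genes equally well were not counted. The annotation, the strand setting and the libraries behind the size factors are not given in the sources used here. The deposited values are a signal, normalized counts. All values were whole multiples of 1 step per library within 0.1 read, so reads and size factors (1.15, 1.42 and 0.844) were recovered from them, and 3 reads equal 2.61, 2.11 and 3.56 normalized counts. The table's 3 further columns matched no sample and were not used. No row lacked a gene name, 27 names had been turned into dates, and 2 names were repeated.

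With 1 group, no test between conditions was possible. Each pair of libraries was set against each other with a two-sided exact binomial test per gene, run on the recovered reads of every gene whose reads in both summed to 10 or more. BCV came from edgeR 4.0.16 in R 4.3.3 over the 13306 genes whose mean reached 10 reads after scaling the libraries to equal totals. For the log2 ratios, a pseudocount of 1 was added to normalized counts before division by exon length. Ratios of neighbours in the order per kb used no pseudocount. Exon lengths and positions came from the GENCODE annotation of GRCm38, and 39425 rows matched 1 gene in it. Promoters came from RefSeq. Scripts used Python 3.11.15, scipy 1.17.1 and pandas 2.3.3 and were tested on simulated data.

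The named genes were the 7, the genes of both lists whose product binds, cuts or inhibits one of them, with others of the lists given by counts or named for their values, cell type markers, and for each of the 7 the 3 genes most like it in pattern. The 7 genes and the lists were chosen with earlier results of these data known, and 1 gene of the plasminogen list is not reported here. The alternatives were another scaling, pseudocounts of 0.5 and 10, other filters on low values, another gene length, a fold limit and leaving out each replicate.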

Additional observations from a re-analysis of the deposited data

How the results depend on the processing

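Other scalings moved the mean level of a gene among the 7 by at most 1.48%. Leaving out replicate 2 moved the mean of Hgf from 114 to 59.9 and that of Serpinb2 from 117 to 67.9 normalized counts, and no other replicate moved any of the 7 means by over 1.5 times. The median SD of log2 level over genes was 0.46 when every gene with a read was kept and 0.20 to 0.30 when 1 replicate was left out. Over the 7 genes together, the SD of log2 level moved by over 1.5 times in 7 of 35 alternatives, all of them without replicate 2. A range above 2-fold was found in 1266 genes with at least 100 normalized counts, in 8604 genes when every gene with a read was kept, and in 770 to 1890 genes when 1 replicate was left out, while 1 to 6 of the 7 genes had it then. Demanding more than 2-fold as well left 2960, 1263 and 2317 genes different between replicates 1 and 2, 1 and 3, and 2 and 3, and 5, 1 and 6 of the 7 genes. In the order per kb, 5 of the 7 genes kept their rank with the longest transcript and 5 to 7 when 1 replicate was left out. BCV ranged from 24.0% to 40.9% when 1 replicate was left out. The recounts of ranges, those of the gene lists included, and of SDs without a replicate were chosen after seeing the data. No paired analysis was possible because the labels give only 1 group. Depth limited Hgf and Serpinb2 most, with 41 and 53 reads in their lowest libraries.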

Other observations

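Serpine2 and Serpinb2 belong to the serpin family, most of whose members inhibit serine proteases, and the family was looked at as a whole by gene name, a rule chosen after values had been seen. Of 67 serpin rows, 36 had reads and 13 were detected. A range above 2-fold was found for 4 of the 13, Serpine2, Serpinb2, Serpinf1 and Serpinb6b, beside 22.0% of all detected genes, and without replicate 2 for Serpinb6b, 1 of the 13. Serpinh1, the collagen chaperone of the endoplasmic reticulum, was steady at 39670, 39992 and 42390.0 normalized counts, a coefficient of variation of 3.65%. Serpinf1, which encodes the antiangiogenic factor PEDF, had 18961, 23070.3 and 10215 normalized counts, highest in replicate 2 and lowest in replicate 3 like Plat. Serpinb6b had 12.2, 16.9 and 94.8 normalized counts, highest in replicate 3, like its close relative Serpinb6a with 10298, 9685 and 14319. Serpinb9 differed little, with 232, 247 and 224 normalized counts.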
